A study of Talinum fruticosum with 36 samples.

Results

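Among the Arabidopsis loci to which leaf RNA reads of Talinum triangulare were assigned, 71 carried no annotation in the deposited table and yet varied strongly over drought, recovery and time of day. They were chosen from the measured levels themselves. Of 21869 loci in the table, 4035 had an empty annotation, 1821 of these were counted at all, and 823 reached a group mean of 10 CPM (counts scaled to a common library total) in at least 1 of the 10 groups. The 71 were those of the 823 (8.63%) whose highest group mean plus 1 CPM was at least 8 times the lowest group mean plus 1 CPM. Among annotated loci, 1164 of 9627 past the same level passed the same limit (12.1%). Because the levels chose the loci, their differences between groups are given as description, with no test.

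Talinum triangulare, labelled Talinum fruticosum in the samples, is a leafy herb, and its mature leaves were sampled. The plants grew well watered for 28 days and were then left without water. The 5 stages were 0, 4, 9 and 12 days without water and 2 days with water again after the 12 dry days, and each was sampled at midnight and at midday, 6 h into the dark and the light phase. Each of the 10 groups had 3 libraries from biological replicates. No genotype or line is named in the labels, which assign days 9 and 12 to the mode of crassulacean acid metabolism (CAM) and the other stages to C3 photosynthesis. No library came from older plants that had stayed watered, so drought, plant age and sampling day cannot be told apart in a comparison with day 0.

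In CAM the stomata open at night, carbon dioxide is bound into malic acid and stored in the vacuole, and the acid is broken down behind closed stomata in the light. Some plants of dry habitats use this cycle only while water is short and return to C3 photosynthesis when watered, which makes the leaf transcriptome depend on both water supply and time of day. An unannotated locus here is an Arabidopsis gene identifier for which the deposited table gives no description. It stands for a predicted protein and collects those Talinum reads whose best match it was.

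The libraries held between 4266915 and 8756533 counts, so a count of 0 in 1 library allows up to 0.343 to 0.703 CPM (3 counts, counting error only). CPM values are not divided by gene length, so levels are compared between groups and not between loci. With levels scaled to the library total, the median of 14052 loci that passed a filter on low counts was higher at midnight than at midday by 0.63 on the log2 scale on day 0, 0.45 on day 4, 0.25 on day 9, 0.28 on day 12 and 0.36 after re-watering, and midday levels were higher by 0.23 on day 9, 0.27 on day 12 and 0.23 after re-watering than on day 0. The day 9 midnight median was lower by 0.15 than that of day 0, and TMM or RLE scaling, which centre the bulk of loci, brought each of these shifts to 0.07 or less. Replicate 3 of re-watered midday lay nearer the midnight level in 32 of 50 loci of the set that differed at least 2-fold between the times of day, against 15 of 47 and 7 of 47 for replicates 1 and 2. Day 0 midnight replicate 3 lay nearer the midday level in 25 of 48, against 18 of 49 and 10 of 46. In these bulk leaves fewer cells of a type and less RNA per cell cannot be told apart. Of 10 markers of green leaf tissue 7 were in the table, with a summed level between 61839 and 149060 CPM per library, and 2 seed storage loci were at 0 in every library. Pollen and flower markers (2 of 3 in the table, summed) lay between 0 and 4.83 CPM per library. Their means were 0.744 CPM on day 12 and 3.77 CPM on day 0 at midnight, and 0.201 and 1.48 CPM on these days at midday. Guard cell markers (5 of 6 in the table, summed) had 119 CPM on day 12 and 57.4 CPM on day 0 at midnight, and 22.3 and 34.5 CPM on these days at midday. Vascular markers (6 of 6) had 358 CPM on day 12 and 810 CPM on day 0 at midnight, and 458 and 495 CPM on these days at midday. Epidermal markers (2 of 4) had 165 CPM on day 12 and 245 CPM on day 0 at midnight, and 185 and 146 CPM on these days at midday. Their part in the levels below was not tested.

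The 71 loci had highest group means between 10.3 and 1732 CPM and ratios between 8.01 and 82.4. In all 71 the 3 libraries of the highest group lay above the 3 of the lowest. The same values chose the loci and these groups, so nothing is read from that separation. Just inside the ratio limit were AT4G21215 (8.01) and AT2G40435 (8.02), and just outside were AT5G14410 (7.91) and AT3G24506 (7.81). Just inside the level limit were AT3G02640 (10.3 CPM) and AT5G50360 (11.7 CPM), and just outside were AT2G25625 (9.98 CPM) and AT3G12320 (8.74 CPM).

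To see how the ratio fared in libraries that had not picked the groups, the highest and the lowest group of each locus were taken from 2 replicate numbers and the ratio was read in the third. Over the 213 values so obtained the median ratio was 11.3, and 158 values (74.2%) were 8 or more. For the 1164 annotated loci the median was 12.4 and the share 79.7%. Values of the set under 2 numbered 4 and came from AT2G01021, AT2G07706 and AT4G29780, whose libraries are described at the end. Membership itself rests on all 3 libraries, so this is a description of spread and not a test.

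The highest mean of 17 loci lay at day 12 midnight and that of 11 at day 12 midday, which made day 12 the stage with most of the maxima. Day 0 midnight followed with 9, day 9 midday with 8, and day 0 midday and day 4 midnight with 7 each. Re-watered midnight had 4, day 9 midnight and re-watered midday had 3 each, and day 4 midday had 2. The leaves that the labels place in the CAM mode (days 9 and 12) thus held the maximum of 39 of the 71 loci (54.9%), against 490 of the 1164 annotated loci (42.1%). They also held the lowest group mean of 37 of the 71 loci (52.1%), against 715 annotated loci (61.4%). With TMM scaling the limits were applied anew and 65 loci passed, 60 of them among the 71. In those 65 the maxima on days 9 and 12 numbered 12 at midnight, where the 71 had 20. On days 0 and 4 they numbered 10 at midnight, where the 71 had 16, and 14 at midday, where the 71 had 9. Of the 71 loci, 63 kept the same highest group with TMM scaling. The maxima of annotated loci were not tallied with TMM scaling, so the shares of the 2 sets are compared with library totals only.

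**Figure D1:**
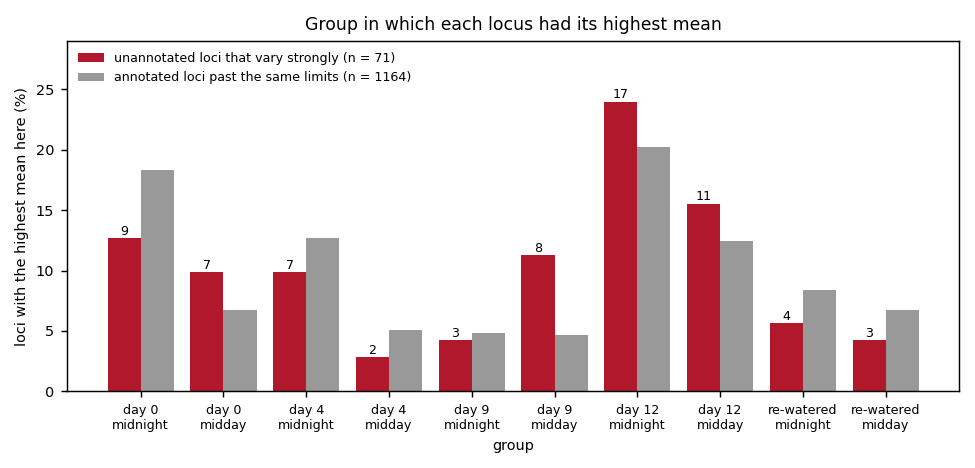
Percentage of loci whose highest group mean fell in each of the 10 groups (stages in order, midnight left of midday), for the 71 unannotated loci (red, with their number above the bar) and the 1164 annotated loci past the same limits (grey). Day 12 midnight holds the tallest bar of both sets, at 23.9% and 20.2%, and day 9 midday holds 11.3% of the unannotated and 4.64% of the annotated loci. Some of these day 9 midday maxima are near ties with day 12 midday, as in AT1G07040 (124.6 and 124.3 CPM) and AT5G64510 (35.30 and 35.29 CPM). Those of AT2G28780 and AT4G29780 lead through replicate 1.

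When the variance of log2(CPM + 1) over the 30 libraries was divided into parts, stage held the largest part in 34 of the 71 loci, time of day in 31, their interaction in 5 and the spread within groups in 1. The median shares were 36.3% for stage, 28.8% for time of day, 7.38% for the interaction and 5.88% within groups. Stage reached 95.8% in AT3G27250 and time of day reached 97.5% in AT3G54500. The interaction was the largest part in AT1G07040 (73%), AT1G44000, AT1G42430, AT4G11910 and AT4G11911, and the spread within groups in AT2G01021 (52.8%).

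**Figure D2:**
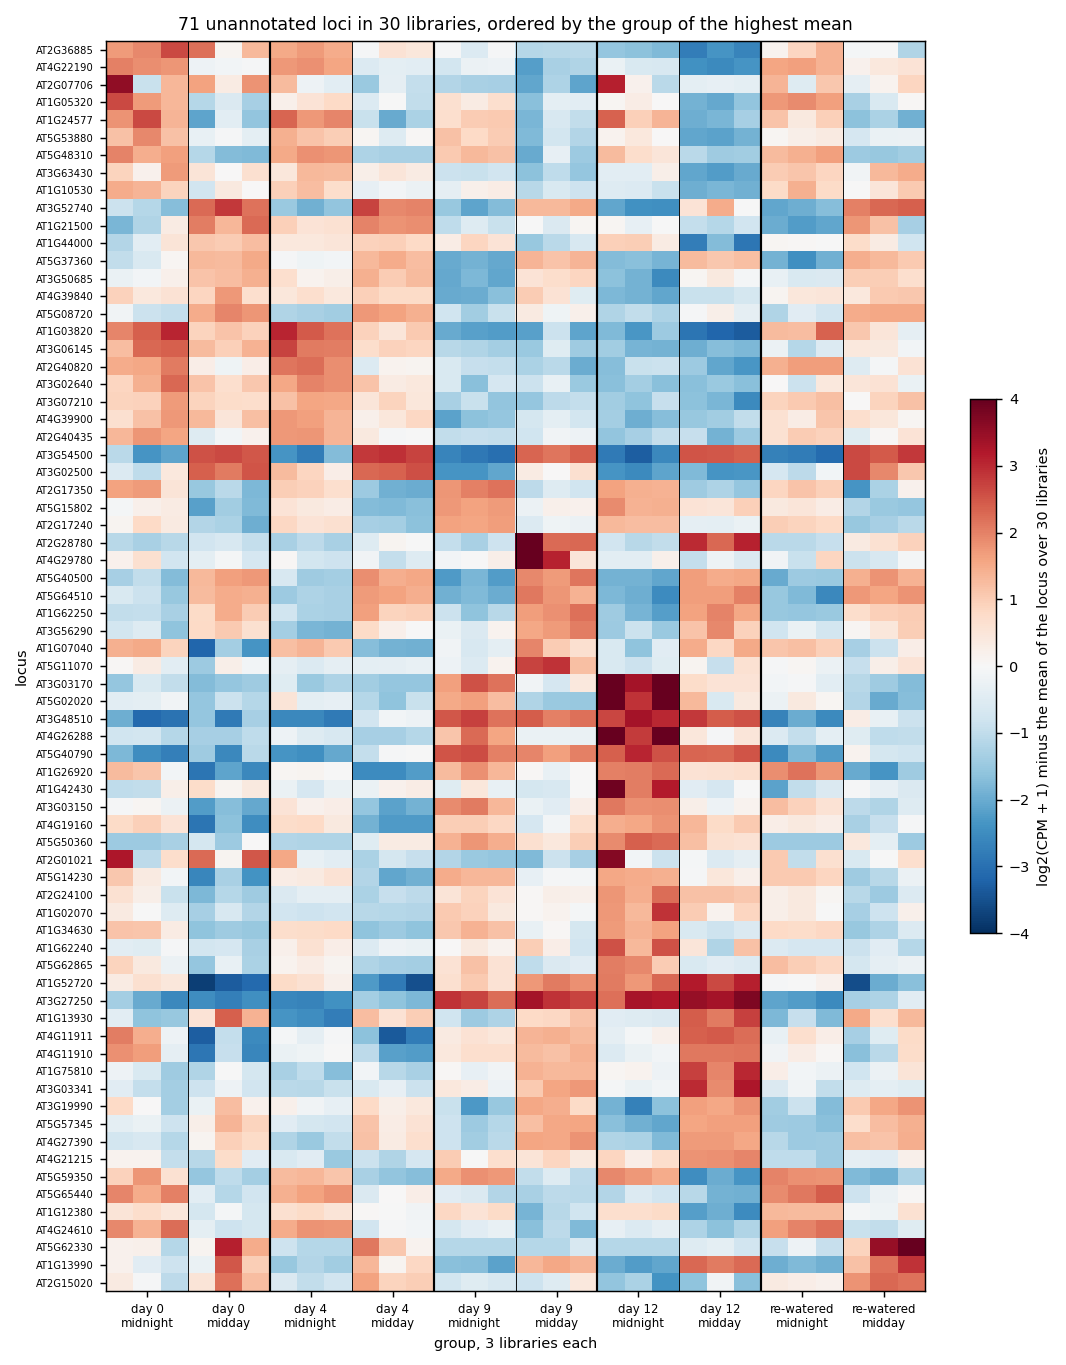
Levels of the 71 loci (rows, ordered by the group of the highest mean) in the 30 libraries (columns, 3 per group, stages in order with midnight left of midday), as log2(CPM + 1) minus the mean of the locus over all libraries. Red is above and blue below that mean, with colours limited at 4. The day 12 midnight libraries are the darkest red for a block that includes AT3G03170 and AT5G02020, and AT3G54500 alternates between midday (red) and midnight (blue) at every stage.

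A first group of loci was higher at both times of day on days 9 and 12 than at any other stage. AT3G27250 had 1.93, 0.858 and 0.268 CPM in the day 0 midnight libraries, 0.234, 0.193 and 0.41 on day 4, 54.9, 48.6 and 34.4 on day 9, 33.5, 73.7 and 68.4 on day 12, and 0.745, 0.599 and 0.302 after re-watering. At midday the libraries held 0.343, 0.14 and 0.386 CPM on day 0, 1.96, 1.49 and 1.15 on day 4, 74.5, 54.7 and 48 on day 9, 82.8, 74.1 and 99.96 on day 12, and 2.02, 2.21 and 4.5 after re-watering. The 12 libraries of days 9 and 12 thus all lay above the 18 others, and all re-watered levels were under 5 CPM. The mean was 57.5 times as high on day 12 as on day 0 at midnight.

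AT3G48510, picked out here after its values were seen, was also highest on days 9 and 12. At midnight it had 2.38, 0.515 and 0.67 CPM on day 0, 1.17, 1.16 and 0.821 on day 4, 72.2, 84.6 and 57.3 on day 9, 82.3, 131 and 105 on day 12, and 1.04, 2.25 and 1.21 after re-watering. The midday libraries had 3.43, 0.838 and 4.12 CPM on day 0, 6.72, 11.1 and 10.4 on day 4, 69.3, 51.2 and 58.4 on day 9, 90.5, 69.3 and 75.3 on day 12, and 14.8, 9.46 and 6.18 after re-watering. Days 9 and 12 again lay above all other libraries, by 89.3-fold over day 0 at midnight and 28.0-fold at midday for the day 12 means. AT5G40790 followed it most closely of all 2485 pairs within the set (r = 0.996 for log2(CPM + 1) over 30 libraries, which share their depth and groups). AT5G50360, with 9.34, 13.5 and 12.2 CPM at day 12 midnight, had 0, 0 and 0.134 CPM at day 0 midnight and 0 in all 3 re-watered midnight libraries, too few counts for a fold.

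AT1G52720, the locus with the largest ratio (82.4), differed from day 0 mainly at midday. Its midnight libraries had 23.8, 29.8 and 26.3 CPM on day 0, 32.6, 29 and 21.7 on day 4, 29.7, 39.9 and 28.4 on day 9, 81.6, 64.2 and 94.9 on day 12, and 18, 18.4 and 21.4 after re-watering. Its midday libraries had 0.457, 0.978 and 1.29 CPM on day 0, 3.08, 1.76 and 0.722 on day 4, 65.1, 82.1 and 68.3 on day 9, 177, 122 and 170.0 on day 12, and 0.673, 3.93 and 5.2 after re-watering. On days 0 and 4 and after re-watering midnight thus lay above midday without overlap, while on days 9 and 12 midday lay above midnight. The day 12 mean was 172 times the day 0 mean at midday and 3.01 times at midnight.

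A second group had its maximum at midnight on day 12 and was low at midday. AT3G03170 had 0.149, 1.2 and 0.67 CPM in day 0 midnight libraries, 1.41, 0.193 and 0.41 on day 4, 9.35, 18.5 and 13.9 on day 9, 79.7, 32.6 and 85 on day 12, and 2.08, 2.25 and 1.51 after re-watering. At midday the values of days 0, 4 and the re-watered leaves lay between 0 and 0.538 CPM, those of day 9 were 2.03, 1.11 and 3.43, and those of day 12 were 4.55, 3.83 and 3.87. Each midnight library of day 12 lay above every other library of the series, and the mean there was 16.1 times that of day 12 midday. AT4G26288, singled out after its values were seen, ran alongside it (r = 0.973), with 42.2, 16.4 and 39.5 CPM at day 12 midnight and at most 2.53 CPM in any midday library.

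AT5G02020 had 3.12, 3.26 and 4.02 CPM at midnight on day 0, 7.03, 3.28 and 3.49 on day 4, 14.9, 16.3 and 12.1 on day 9, 161, 40.6 and 88.5 on day 12, and 3.72, 6.29 and 4.83 after re-watering. Its midday libraries lay between 0.369 and 2.09 CPM except on day 12, with 12.8, 2.64 and 6.25. The day 12 midnight libraries lay above all others although they differed among themselves by more than those of any other group. The mean was 27.9 times as high on day 12 as on day 0 at midnight. Its contigs showed no difference of that size, as given below.

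AT1G42430 was the case in which a single group stood out. The day 12 midnight libraries had 265, 72.8 and 162 CPM, and no library of another group exceeded 29.1 CPM. At midnight the others held 7.87, 8.06 and 20.1 CPM on day 0, 14.1, 10.4 and 14 on day 4, 11.8, 23.6 and 13.6 on day 9, and 3.13, 8.09 and 11 after re-watering. At midday its day 12 libraries (12.1, 10.3 and 16.8 CPM) lay below those of day 0 (29.1, 18.3 and 22.5 CPM), so that the directions differed between the times of day.

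AT4G19160 was abundant at midnight at every stage and became so at midday during drought. It had 482, 554 and 417 CPM at midnight on day 0, 471, 495 and 375 on day 4, 559.8, 565 and 504 on day 9, 781, 837 and 987 on day 12, and 345, 369 and 339 after re-watering. Midday libraries had 36.3, 90.9 and 49.7 CPM on day 0, 75.5, 58 and 58.2 on day 4, 179.9, 266 and 466 on day 9, 713, 481 and 589 on day 12, and 115, 151 and 276 after re-watering. Midnight lay above midday without overlap at all 5 stages, by 1.46-fold on day 12 and 8.21-fold on day 0. With TMM scaling that separation no longer held at every stage. The annotated loci most like it over the 30 libraries were AT5G44300, a dormancy/auxin associated family protein (r = 0.961), AT1G28330, annotated as dormancy-associated protein-like 1 (r = 0.960), and AT5G36940, cationic amino acid transporter 3 (r = 0.959).

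**Figure D3:**
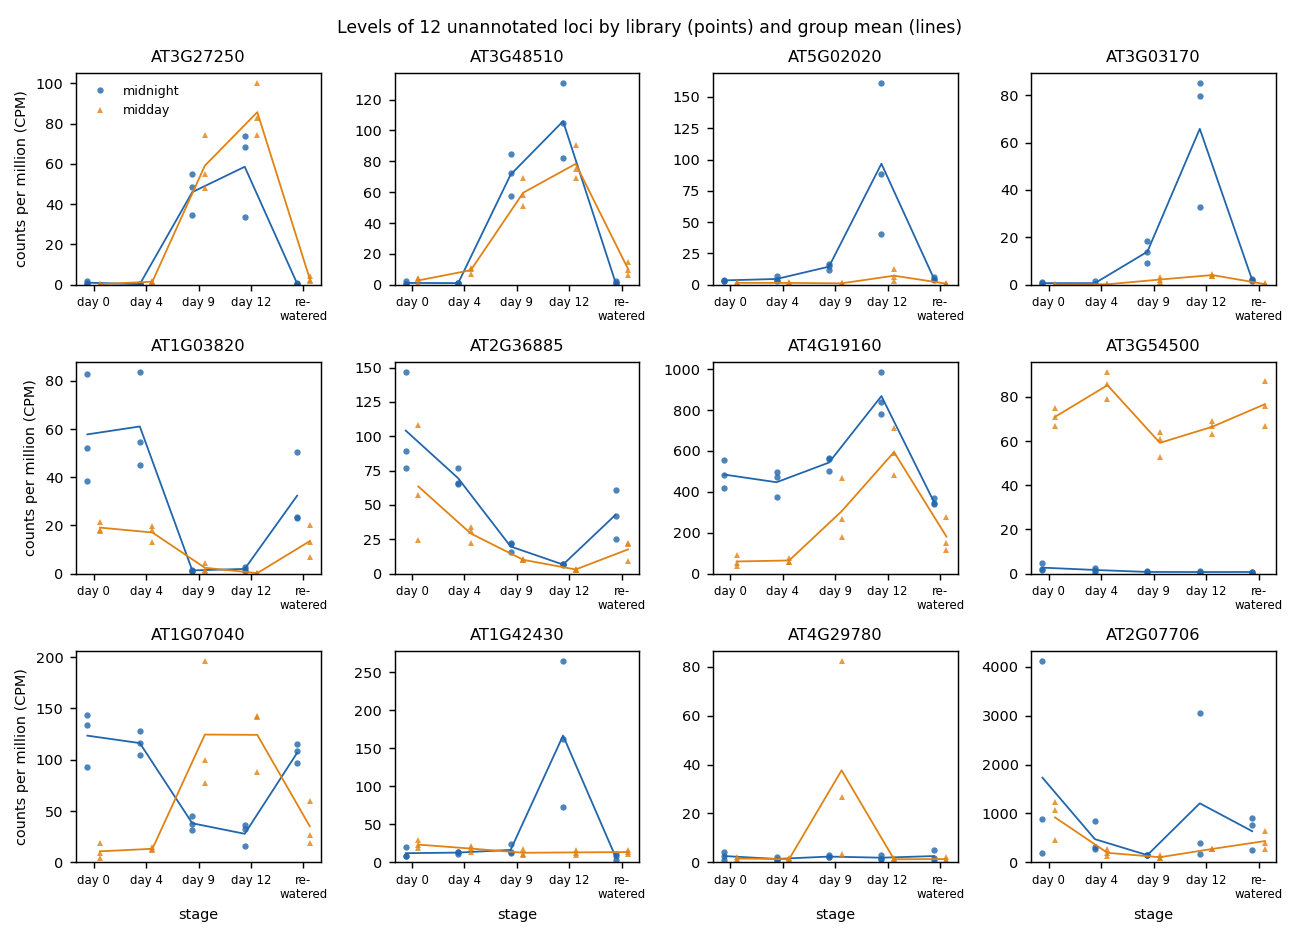
Levels in CPM of 12 of the 71 loci at each stage, with 1 point per library and lines through the group means (midnight as blue circles, midday as orange triangles). AT3G27250 and AT3G48510 are high on days 9 and 12 at both times, AT5G02020, AT3G03170 and AT1G42430 at day 12 midnight, AT1G03820 and AT2G36885 on days 0 and 4, and AT3G54500 at every midday, while single libraries carry the high means of AT4G29780 and AT2G07706.

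Other loci were highest at midday in drought. AT2G28780 had 0.457, 0.559 and 0.257 CPM at midday on day 0, 0.7, 1.63 and 1.44 on day 4, 44.6, 10.7 and 11 on day 9, 18.2, 11.1 and 19.5 on day 12, and 2.15, 2.7 and 3.65 after re-watering. No midnight library had more than 0.431 CPM. All 15 midday values but 1 lay above that, and days 9 and 12 stood at least 10.7 CPM high in each library. AT1G13930 had 297, 236 and 368 CPM at midday on day 12, against 80.1, 289.9 and 145 CPM on day 0, which overlap. Its day 9 midday libraries (95.7, 99.2 and 123 CPM) overlapped those of day 0 and of day 4 (131, 83 and 110 CPM). Time of day held 78.7% of the variance of this locus and stage 13.3%. Its lowest group was day 4 midnight, with 9.84, 9.08 and 7.18 CPM.

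Loci of the opposite kind were higher on days 0 and 4 than on days 9 and 12. AT1G03820 had 38.6, 52 and 82.8 CPM at midnight on day 0, 83.7, 54.7 and 44.9 on day 4, 1.49, 1.24 and 1.15 on day 9, 2.01, 1.04 and 2.68 on day 12, and 23.4, 23.1 and 50.5 after re-watering. Its midday libraries had 17.7, 21.5 and 18 CPM on day 0, 18.1, 13.3 and 19.8 on day 4, 1.25, 4.56 and 1.37 on day 9, 0.35, 0.132 and 0 on day 12, and 20.3, 13.1 and 6.89 after re-watering. All libraries of days 9 and 12 lay below all others. The day 12 mean was 30.2 times lower than that of day 0 at midnight, and the re-watered midnight libraries overlapped those of day 0.

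AT3G06145 was also scarce in drought, and it remained below day 0 after re-watering. Midnight libraries had 9.66, 21.1 and 22.5 CPM on day 0, 28.6, 18 and 17.6 on day 4, 1.08, 0.966 and 0.765 on day 9, 0.718, 0.26 and 0.233 on day 12, and 2.83, 1.05 and 2.11 after re-watering. After 2 days of water its midnight libraries were thus still below every day 0 library. At midday they had 5.11, 4.92 and 3.23 CPM after re-watering, against 9.94, 7.68 and 10.9 CPM on day 0, again with no overlap.

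AT2G36885 had stepwise lower levels over the course of drought. It had 76.5, 89 and 147 CPM at midnight on day 0, 66.1, 76.7 and 65.4 on day 4, 21.9, 15.3 and 21.8 on day 9, 7.04, 6.63 and 5.94 on day 12, and 25.3, 42.1 and 60.8 after re-watering. At midday it had 108, 24.6 and 57.5 CPM on day 0, 22.1, 34.2 and 31.2 on day 4, 9.81, 9.86 and 10.3 on day 9, 2.45, 3.56 and 2.83 on day 12, and 21.3, 22.2 and 9.28 after re-watering. Days 4, 9 and 12 did not overlap one another at either time of day, whereas day 4 and day 0 did at both. AT3G02500 was a midday locus of this kind, with 29.5, 23.6 and 32.3 CPM on day 0, 27.9, 28.9 and 33.5 on day 4, 6.23, 4.93 and 8.09 on day 9, 0.7, 0.132 and 0.149 on day 12, and 35.4, 21 and 11.2 after re-watering.

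Set against time of day alone, 19 of the 71 loci had all midnight libraries above all midday libraries at each of the 5 stages, where 19.3% of all 14052 loci did, and 13 had midday above midnight at each stage, where 3.27% did. In 11 the order turned between stages with no overlap either way, where 13% of all loci did. With TMM scaling the numbers were 12, 15 and 12, and 7.54%, 9.02% and 14.2% of all loci. Since the limits chose loci that differ between groups, nothing is read from the members' counts. The midday loci included AT3G54500, which had 70.8, 75.1 and 67 CPM at midday on day 0, 85.7, 91.3 and 79 on day 4, 60.8, 52.8 and 64.1 on day 9, 69.3, 67 and 63.2 on day 12, and 76, 67 and 87.1 after re-watering. None of its midnight libraries exceeded 4.75 CPM, and those of days 9 and 12 and of re-watered leaves were all at or under 1.05 CPM. The 15 midday values lay between 52.8 and 91.3 CPM, above every midnight value. AT5G64510 (r = 0.981) and AT5G40500 (r = 0.975) varied with it.

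Among midnight loci that also kept their separation with TMM scaling, AT2G17240, AT5G15802 and AT2G17350 had their maximum on day 9. AT2G17240 no longer passed the limits with TMM or RLE scaling, however, and AT5G15802 no longer did with RLE scaling. AT2G17240 had 161, 157 and 168 CPM at day 9 midnight and 35.5, 46 and 44.6 CPM at day 9 midday. AT5G15802 had 81.1, 74.5 and 79.4 CPM at day 9 midnight and 20.3, 27.5 and 27.3 CPM at day 9 midday. AT4G22190, with its maximum at day 0 midnight (32.5, 28.6 and 27.2 CPM), kept the midnight excess in drought at a lower level, with 5.89, 4.42 and 4.31 CPM at day 12 midnight and 0.525, 0.396 and 0.595 CPM at day 12 midday.

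The clearest change of order was in AT1G07040. At midnight it had 134, 144 and 92.8 CPM on day 0, 116, 128 and 104 on day 4, 45.2, 31.7 and 37.2 on day 9, 32, 15.5 and 35.9 on day 12, and 108, 116 and 96.4 after re-watering. At midday it had 4.57, 18.9 and 8.75 CPM on day 0, 14.6, 12.7 and 12.3 on day 4, 197, 100.1 and 77 on day 9, 142, 88.5 and 143 on day 12, and 19.1, 26.5 and 60 after re-watering. Midnight was thus 11.5-fold above midday on day 0, and midday was 4.47-fold above midnight on day 12. The order of day 0 was back in re-watered leaves, without overlap.

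AT1G44000 turned the other way. Its midnight libraries had 20.2, 35 and 67.1 CPM on day 0, 64, 62.8 and 65.9 on day 4, 58.2, 86.1 and 68.7 on day 9, 92.4, 94.4 and 59.7 on day 12, and 49.6, 49 and 46.2 after re-watering. Its midday libraries had 100.2, 96.2 and 113 CPM on day 0, 89.2, 92.9 and 81.7 on day 4, 15.7, 21.8 and 29.8 on day 9, 6.13, 13.3 and 5.5 on day 12, and 79, 59.7 and 26.8 after re-watering. The midday levels of days 9 and 12 lay below all midday levels of days 0 and 4, while midnight levels of day 12 overlapped those of day 0. AT4G11910 and AT4G11911, named after their values were seen, were alike in turning to midday (r = 0.979). At day 12 AT4G11910 had 16.8, 20.5 and 23.1 CPM at midnight and 109, 109 and 112 CPM at midday, against 91.1, 80.4 and 19.2 CPM at midnight and 2.51, 12.6 and 3.22 CPM at midday on day 0. Reads may have been split between this pair, since each read was given to its best protein match, so the values of either locus are uncertain.

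**Figure D4:**
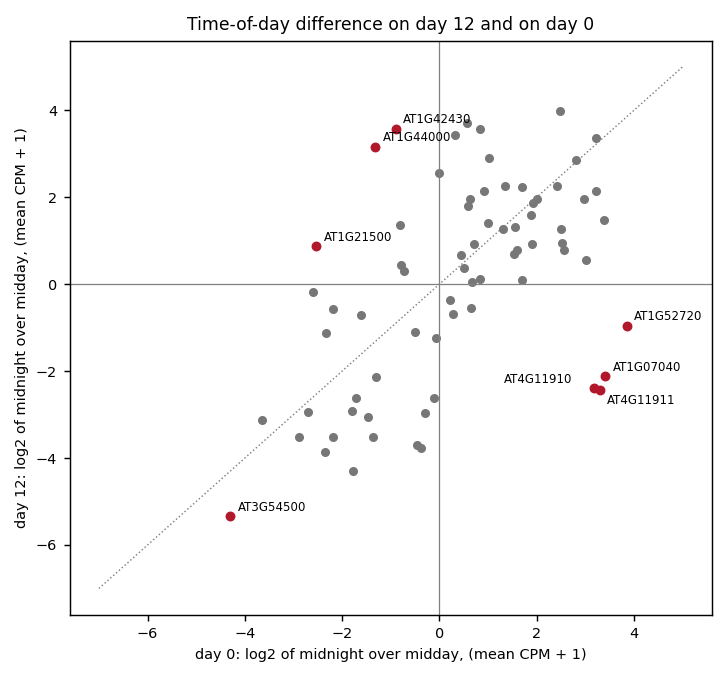
Difference between midnight and midday on day 12 (vertical axis) and day 0 (horizontal axis) for the 71 loci, each as log2 of the ratio of group means with 1 CPM added (points, 8 loci named in red). The dotted line marks equal differences. Loci at the lower right, such as AT1G07040 and AT1G52720, were midnight-high on day 0 and midday-high on day 12, and AT1G42430 and AT1G44000 lie at the upper left. On these scales all loci together are shifted towards midnight, by a median of 0.28 on day 12 and 0.63 on day 0.

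Of the loci with their maximum at re-watered midday, AT2G15020, AT5G62330 and AT1G13990, all 3 overlapped day 0 midday. AT2G15020 had its maximum at re-watered midday, with 428, 615 and 567 CPM, against 39.7, 111 and 37.9 CPM at day 12 midday and 176, 577 and 290.0 CPM at day 0 midday. The re-watered libraries lay above those of day 12 and overlapped those of day 0. At midnight it had 159, 149 and 139 CPM in re-watered leaves, against 40.6, 50.6 and 22.7 CPM on day 12. AT5G62330 had 3.09, 23.6 and 64.5 CPM at re-watered midday, against 0.525, 0.66 and 0.298 CPM at day 12 midday and 1.37, 18 and 5.15 CPM at day 0 midday, with a wide spread among its re-watered libraries.

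A few maxima rest on 1 or 2 libraries. AT4G29780 had 82.4, 26.9 and 3.57 CPM at day 9 midday and at most 4.98 CPM in every library of the other groups. AT2G07706 had 4126, 190.1 and 880.4 CPM at midnight on day 0, 850.0, 307 and 265 on day 4, 157, 144 and 141 on day 9, 3051, 403 and 168 on day 12, and 908, 245 and 754 after re-watering. AT2G01021 was high in the same libraries, with 1174, 59.4 and 202 CPM at day 0 midnight and 1601, 115 and 68.3 CPM at day 12 midnight. In both, day 0 midnight replicate 1 and day 12 midnight replicate 1 stood above all other libraries, and the loci moved together over the 30 libraries (r = 0.966). Read in the replicate that had not picked the groups, the ratio of AT2G01021 was between 1.61 and 10.7, that of AT2G07706 between 1.27 and 12.9 and that of AT4G29780 between 1.47 and 24.9. Without day 9 midday replicate 1, AT4G29780 and AT5G11070 no longer passed the limits. AT5G11070, with a ratio of 8.35 close to the limit, also failed without day 9 midday replicate 2 and without day 12 midnight replicate 2. The annotated loci most like AT2G07706 and AT2G01021 were AT2G07732, annotated as a Rubisco large chain domain, AT2G07707, annotated as a subunit of the mitochondrial ATPase, and AT2G07671, annotated as an ATP synthase subunit C family protein (r between 0.757 and 0.885), none with a group mean over 2.81 CPM.

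Among the 6 loci with the highest means, AT5G57345 had the closest annotated counterparts. It had 341, 356 and 357 CPM at day 12 midday and 132, 290 and 212 CPM at day 0 midday, and 34.6, 28.9 and 25.8 CPM at day 12 midnight and 86.5, 94.9 and 62.8 CPM at day 0 midnight. The loci most like it were AT3G57680, a peptidase S41 family protein (r = 0.981), AT2G05620, proton gradient regulation 5 (r = 0.981), a protein of cyclic electron flow in photosynthesis, and AT3G48940, a remorin family protein (r = 0.978). For AT2G15020 they were AT2G45550, a cytochrome P450 (r = 0.922), AT5G61410, a ribulose-5-phosphate epimerase (r = 0.920), an enzyme of the Calvin-Benson cycle, and AT4G15610 of an uncharacterised family (r = 0.914). For AT1G13930 they were AT3G11670, a glycosyltransferase (r = 0.930), AT1G07270, annotated as Cdc6 (r = 0.929), and AT1G55500 (r = 0.919). All r values are over 30 libraries that share groups and depth, and they describe likeness only. They do not compare the size of the changes, which was smaller in some counterparts and larger in others. Group means of AT5G61410 lay between 998 and 1821 CPM, beside 38.0 and 537 CPM for AT2G15020. Those of AT3G57680 lay between 5.03 and 671 CPM, beside 29.7 and 351 CPM for AT5G57345.

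The counts of all loci were also compared between groups with the quasi-likelihood test of edgeR and Benjamini-Hochberg adjustment over 14052 loci, in which all 71 took part. The limits had used these levels, so the members' calls are printed beside the share of all loci called and nothing is read from them. On day 4 against day 0, 0 members were called at midnight (0.0498% of all loci higher and 0.135% lower) and 0 at midday (0% and 0%). At an unadjusted p under 0.05 there were 11 members at each time, a limit not tallied over all loci. DESeq2 called 2 members at midnight (83 of all loci higher and 152 lower) and 0 at midday (0 and 0). With limma-trend 0 members were called (21 and 37 of all loci at midnight, 0 and 0 at midday). Without day 0 midnight replicate 3 the midnight count of members was 9, and calls over all loci were not tallied in that fit. On day 9 against day 0, 20 were higher (23.2% of all loci) and 27 lower (25.4%) at midnight, and 28 higher (23.4%) and 26 lower (21%) at midday. On day 12 against day 0, 25 were higher (27.8%) and 31 lower (29.8%) at midnight, and 28 higher (29.3%) and 29 lower (25.7%) at midday. Over all loci the balance at midday turned with the scaling. On day 12 it was 4117 higher and 3615 lower with TMM but 3517 and 4061 with RLE, and on day 9 it was 3291 and 2956 with TMM but 2959 and 3267 with RLE. The members' midday calls with RLE were 26 higher and 30 lower on day 12 and 27 and 27 on day 9. The members' median log2 change on day 12 was -0.44 at midnight and -0.02 at midday, beside 0.01 and 0.08 for all loci.

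In re-watered leaves against day 0, 4 members were called higher (8.28% of all loci) and 13 lower (11.3%) at midnight, and 9 higher (4.09%) and 2 lower (2.75%) at midday. Without day 0 midday replicate 1 the midday count was 2 in place of 11, and calls over all loci were not tallied in that fit. With upper quartile scaling 7 were higher and 2 lower at midday. Over all loci that scaling called 499 higher and 534 lower, in place of 575 and 387 with TMM. Higher calls thus made up 48.3% of all calls in place of 59.8%. Against day 12, 20 were higher (22.3%) and 22 lower (20.6%) at midnight, and 26 higher (22.9%) and 28 lower (24.8%) at midday. Both comparisons use the re-watered libraries, so their counts are not independent.

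For midnight over midday, 25 members were called higher (22.9% of all loci) and 24 lower (21%) on day 0, 25 (22.4%) and 25 (19.5%) on day 4, and 21 (24%) and 27 (25.6%) on day 9. On day 12 it was 28 (27.2%) and 25 (27.5%), and after re-watering 22 (23.6%) and 27 (23.5%). Of these calls AT2G01021 on day 12 changed sign, with a log2 change of 2.29 that was -0.42 without day 12 midnight replicate 1.

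The authors' deposited contig table gives mean levels in RPM (reads scaled to a common total) for contigs of a de novo assembly, each with its Arabidopsis match. The 10 groups are the same, so it shows the same differences counted in another way and is no independent measure. Of the 71 loci, 50 had 123 contigs and 21 had none. The longest contig of a locus had a coding length between 330 and 3816 bases (median 909). With the RPM of a locus's contigs summed, 45 of the 47 loci that reached 10 RPM also had a ratio of at least 8. The highest group was the same in 43 of 50 and its time of day in 47 of 50. Pearson r over the 10 group means was 0.9 or more in 44 loci, with a median of 0.995.

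The contigs departed from the locus counts in a few places. For AT3G48510 the contig reached 1023 RPM at day 12 midday, which was its highest group, while the locus was highest at day 12 midnight with a mean of 106 CPM. The contigs of AT1G52720 reached 1525 RPM at day 12 midday, where the locus had a mean of 156 CPM, and that of AT5G50360 reached 280 RPM at day 12 midnight, where the locus had a mean of 11.7 CPM. For AT5G02020 r was 0.494. Its contigs had 16.3, 21, 23.3 and 23.3 RPM at midnight on days 0, 4, 9 and 12, and 18.7 RPM after re-watering. They thus did not set day 12 midnight apart, where the locus had a mean of 96.6 CPM. This locus is counted among the 43 with the same highest group, although its contigs were level on days 9 and 12 at midnight. The contigs of AT3G02500, AT5G08720 and AT2G40820 stayed under 5 RPM. The best beet match of the contigs gave a description for 2 loci, a myosin heavy chain fragment for AT1G05320 and ankyrin-repeat proteins for AT5G14230, and no beet match was listed for AT3G06145 and AT5G40500.

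**Figure D5:**
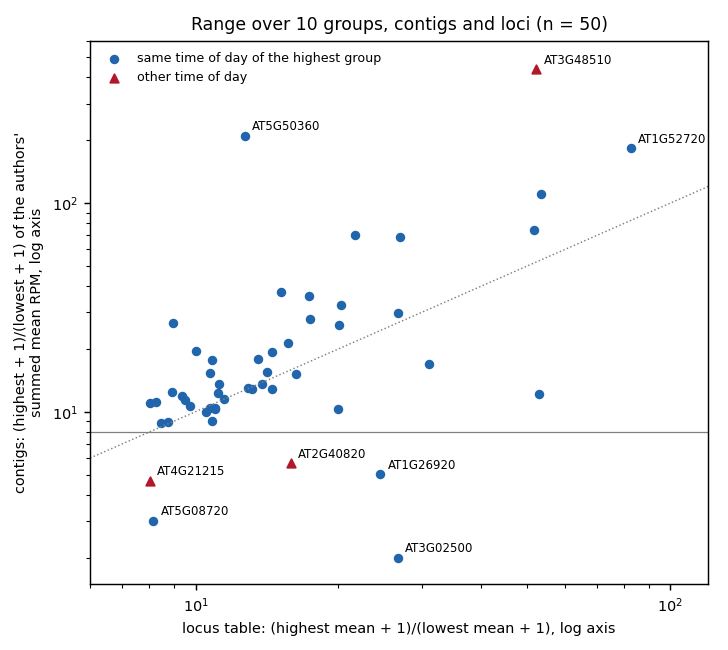
Ratio of the highest to the lowest group of the summed contigs (vertical axis, authors' mean RPM with 1 added) against the ratio of the locus counts (horizontal axis, mean CPM with 1 added) for the 50 loci with contigs, both on log axes. The horizontal line marks a ratio of 8 and the dotted line equal ratios. Blue circles have their highest group at the same time of day in both tables (47 loci), and red triangles do not (AT3G48510, AT2G40820 and AT4G21215).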

How the data were processed

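Per the labels' protocols, polyA libraries of mature leaves (TruSeq) were sequenced as single reads of 150 bp, with 12 libraries per lane. Bases were called with CASAVA 1.8.2, per the submitters' processing notes. Per the file headers, the authors mapped reads in protein space with BLAT to a reduced TAIR10 set and deposited the raw read count of each locus and library. The deposited contig table holds the authors' mean RPM per group, with no replicate values. The 6 paired-end libraries were not analysed here. From the counts, CPM of the library total, group means ± SD and the ratio with a pseudocount of 1 CPM were computed (Python 3.11.15, pandas 2.3.3). A fold is given only where the group in the denominator held over 3 counts.

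All 30 libraries were fitted with edgeR 4.0.16 (R 4.3.3), TMM, filterByExpr, a robust quasi-likelihood fit, 1 coefficient per group and no block. Calls are two-sided at an adjusted p under 0.05, and the code was tested on simulated data. Alternatives used DESeq2 1.42.0, limma 3.58.1, other scalings, filters, limits and left-out libraries. Same-numbered libraries were not treated as pairs. Among 135 such combinations across groups the residual r lay between -0.41 and 0.38, with 20 over 0.1. Its mean was 0.0024, beside -0.0012 for other-numbered libraries, so a link between single libraries is not excluded.

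The loci, lists and rules were chosen with earlier results of these data known. Loci that could be named were, per group of the highest mean, up to 3 loci with the highest mean and 2 with the largest ratio. Those nearest the limits, those the contig table describes and those with opposite directions at midnight and midday on day 9 could also be named. So could the 3 annotated loci most like each of the 6 highest. AT3G48510, AT5G40790, AT4G26288, AT4G11910, AT4G11911, AT5G11070 and AT5G40500 were added after their values were seen. AT4G27390 and AT5G64510 were likewise added, for opposite directions on day 12. Not every locus that could be named is described. No sequence is printed, since none was used here.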

Additional observations from a re-analysis of the deposited data

Results flagged for a closer look

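In a few loci every library of one time of day moved up against day 0 and every library of the other moved down, and the midnight change minus the midday change is given on the log2 scale of the group means plus 1 CPM. These differences were not tested. In AT1G07040 it was -5.09 on day 9 (-1.67 at midnight and 3.42 at midday) and -5.53 on day 12 (-2.11 and 3.42). AT1G42430 differed the other way on day 12, by 4.48 (3.69 at midnight and -0.79 at midday). AT3G19990 differed by -3.23 on day 12 (-2.08 at midnight and 1.15 at midday) and AT5G57345 by -2.15 (-1.42 and 0.73). For these 4 loci the directions were also opposite with TMM scaling. AT1G62250 (-1.34), AT4G27390 (-1.58) and AT5G64510 (-1.51) met the same condition on day 12 with library totals, but with TMM scaling their libraries overlapped at 1 time of day or both.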

How the results depend on the processing

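The number of loci passing the limits was 71, with 203 at a ratio of 4, 26 at a ratio of 16 and 25 with a pseudocount of 5 CPM. TMM scaling gave 65 loci, 60 of them among the 71, and without both libraries nearer the other time of day (chosen after seeing the data) 76 passed, all 71 included. Of the 65 loci passing with TMM scaling, 10 had the maximum on days 0 and 4 at midnight and 14 there at midday. On days 9 and 12 at midnight it was 12 of the 65. Of the 71 loci, 63 kept their highest group. The re-watered midday maxima were 3, and 5 among the 78 loci that passed by group medians. The median ratio in the left-out replicate was 6.0 with a pseudocount of 5 CPM. Day 4 midnight calls were 0, with 1 by RLE scaling, 1 with a filter of 5 CPM and 2 by DESeq2. Over all loci these fits called 7 higher and 28 lower, 16 and 31, and 83 and 152, in the same order. Re-watered against day 0 gave 17 at midnight and 11 at midday, but 9 and 3 at an adjusted p under 0.01. An edgeR fit of only the groups compared called 0 members and 0 of all loci at midday. In that fit 23 of 66 members had an unadjusted p under 0.05. Over all loci neither the adjusted limit of 0.01 nor the unadjusted limit was tallied, so nothing is read from these members' counts. Fitted to all groups, DESeq2 called 12 members at midday (597 of all loci higher and 650 lower) and limma-trend 10 (557 and 369). The cause was not tested.

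Leaving out 1 library at a time gave 69 to 76 loci, and maxima of 14 to 23 on days 0 and 4 at midnight, 8 to 11 there at midday, 17 to 23 on days 9 and 12 at midnight, 17 to 20 there at midday, 3 to 5 at re-watered midnight and 2 to 5 at re-watered midday (5 without re-watered midday replicate 1). Day 4 midnight calls were 0 to 9, with 9 without day 0 midnight replicate 3. Re-watered midnight calls against day 0 were 10 to 16, with 10 without re-watered midnight replicate 1. Re-watered midday calls against day 0 were 2 to 17, with 2 without day 0 midday replicate 1, 4 without day 0 midday replicate 3, and 17, 5 and 3 without re-watered midday replicates 1, 2 and 3. The other calls stayed within 1.5 times. Calls over all loci were not tallied with libraries left out, so nothing is read from these members' counts.

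With the replicate number as a block the calls were 46 on day 9 and 56 on day 12 against day 0 at midnight and 55 and 57 at midday. Re-watered against day 0 gave 16 at midnight and 9 at midday. Over all loci the block fit called 3242 higher and 3558 lower on day 9 at midnight and 3881 and 4152 on day 12. At midday it called 3287 and 2929 on day 9 and 4090 and 3603 on day 12. For re-watered against day 0 it called 1163 and 1564 at midnight and 539 and 358 at midday. The block moved no count of members by over 1.5 times, and same-number libraries did not deviate together on average (mean r = 0.0024, other pairs -0.0012).

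Group means rest on 3 libraries, and levels near 1 CPM on a few counts, where a ratio depends on the pseudocount. Ratios of single loci moved by over 1 SD in 79 cases and by less in 205 under TMM scaling, group medians and the pseudocounts of 0.5 and 5 CPM.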
